A study of Mus musculus with 270 samples.

Results

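Liver and heart of the same old mice were compared, to show how far the RNA of these organs differed at 26 months of age (26 M). The 10 libraries were those labelled liver and those labelled heart of the 5 mice of 26 M, out of 270 libraries of 45 mice in the deposited tables, and each mouse gave 1 library of each organ. All mice were male, wild-type (WT) C57BL/6J animals, and the labels name no transgene or treatment. Both libraries of a mouse share a code that starts with ET, which is not explained in the sources used here. The columns of 3 of the 5 hearts and of 0 of the 5 livers end in b, likewise unexplained, so organ and this suffix cannot be wholly told apart. Liver and heart of the 7 mice of 20 M, of the same sex and strain, served as a second set. The mice are named c620, c2293, c3667, c3668 and c3775, and values of 5 libraries are given in this order throughout. The value of a gene is its count per 1000000 reads on genes of that library (CPM), and the 11955 genes of 51810 with at least 5 CPM in at least 4 of the 10 libraries were tested.

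The liver makes most proteins of the blood plasma, clears drugs and hormones, turns ammonia into urea, makes bile acids and releases glucose during fasting. These tasks fall to hepatocytes, and nuclear receptors and hepatocyte nuclear factors are known to drive their genes. The heart pumps without rest: cardiomyocytes are packed with sarcomeres and mitochondria, burn mostly fatty acids, and release natriuretic peptides when stretched. Bulk RNA was measured, so fewer cells of a type and less RNA per cell cannot be told apart. A gene could pass the filter through 1 organ alone.

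Recovered reads on genes ranged from 7392448 to 14329569 in liver and from 8180358 to 11278123 in heart. Markers of the labelled organ were present in every library: a list of 15 hepatocyte genes held 6.22, 11.7, 1.6, 0.694 and 3.25% of the reads of the libraries labelled liver and at most 0.00561% in heart. A list of 15 cardiomyocyte genes held 6.82, 5.95, 9.77, 8.64 and 9.21% in heart and at most 0.0181% in liver. In this list 2 genes were at 0 in all 10 libraries and add nothing to these shares. The libraries labelled liver of c3667 and c3668 stood apart. Kidney tubule genes held 1.05 and 0.527% of their reads and brain genes 0.466 and 1.09%, and in c3668 the brain list exceeded the hepatocyte list. In the other 3 libraries labelled liver the kidney list held at most 0.107% and the brain list at most 0.103%. Over the tested genes, log2 values of these 2 libraries correlated with each other (r = 0.95) and with the kidney mean of this age (r = 0.80 and 0.73, against 0.57 to 0.60 in the other 3). The 3 mice c620, c2293 and c3775 were therefore also fitted alone, and the part that kidney or brain RNA had in the results was otherwise not tested. The hearts fell into sets too: c620 and c2293 correlated at 0.99 and the other 3 at 0.96 to 0.98, but across these sets r was 0.91 to 0.94. Hadhb, a subunit of the mitochondrial trifunctional protein, showed this split, with 3686 and 4608 CPM in the hearts of c620 and c2293 and 615 to 693 CPM in the other 3.

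**Figure D1:**
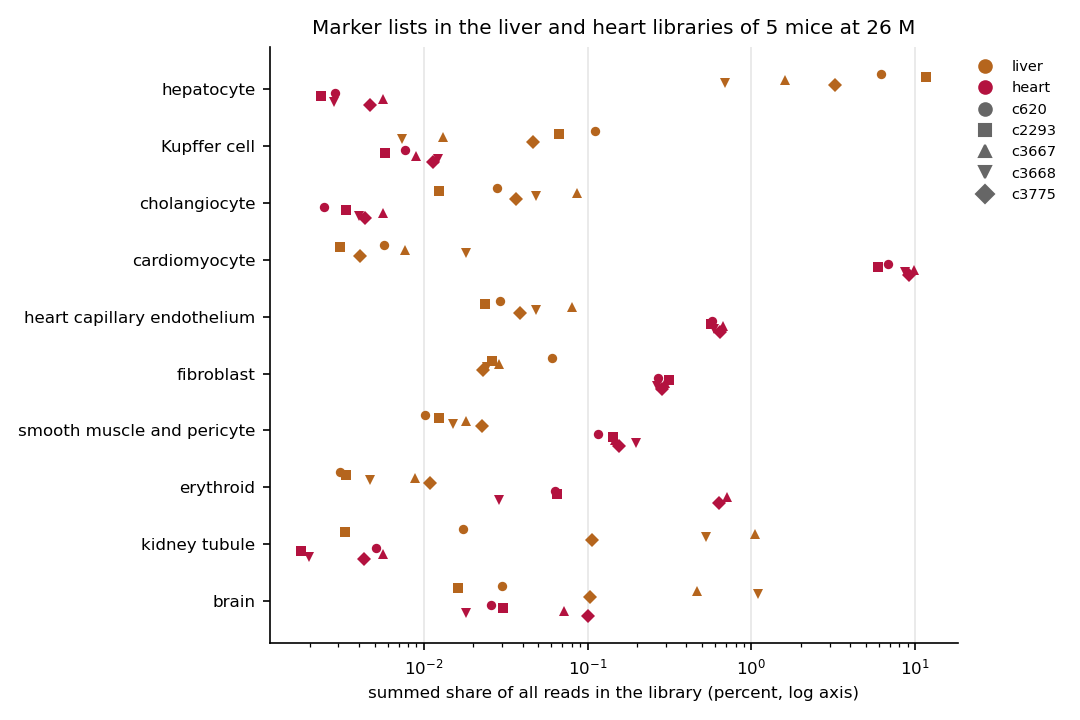
Share of reads on genes taken by 10 marker lists (percent, log axis) in each of the 10 libraries, with a point shape for each mouse and a colour for each organ. The hepatocyte list lies between 0.694 and 11.7% in liver and at most at 0.00561% in heart, while kidney tubule and brain lists are high in the libraries labelled liver of c3667 and c3668.

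The start regions of 4 genes with large differences are shown first, since the hepatocyte nuclear factor HNF1 and the muscle factor MEF2 recognise short sequences there. Sequences are from RefSeq on GRCm38.p6, with 250 bases before and 50 bases after the annotated start. Fgb codes for the fibrinogen beta chain (chr3:83049814-83050113, minus strand), Alb for albumin (chr5:90460620-90460919, plus strand), Myh6 for the cardiac myosin heavy chain alpha (chr14:54966558-54966857, minus strand) and Mybpc3 for cardiac myosin-binding protein C (chr2:91117894-91118193, plus strand). Fgb and Alb had the largest differences toward liver and Myh6 is the highest gene of heart, whereas Mybpc3 was chosen after its letters were seen, because it holds a MEF2 site. Capitals mark the HNF1 half-site GTTAAT, at bases -32 to -27 in Alb. In Fgb it lies at bases -29 to -24 on the opposite strand. They also mark the letters TATAAA at bases 2 to 7 in Myh6 and the MEF2 site at -90 to -81 in Mybpc3. The TATAAA of Myh6 lies after the annotated start, and whether it acts as a TATA box was not tested.
Fgb: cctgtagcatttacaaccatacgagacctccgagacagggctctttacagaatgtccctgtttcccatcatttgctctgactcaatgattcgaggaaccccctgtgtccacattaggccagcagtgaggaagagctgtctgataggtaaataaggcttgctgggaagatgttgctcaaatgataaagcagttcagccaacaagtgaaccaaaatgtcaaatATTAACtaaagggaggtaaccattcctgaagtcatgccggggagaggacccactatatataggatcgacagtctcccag
Alb: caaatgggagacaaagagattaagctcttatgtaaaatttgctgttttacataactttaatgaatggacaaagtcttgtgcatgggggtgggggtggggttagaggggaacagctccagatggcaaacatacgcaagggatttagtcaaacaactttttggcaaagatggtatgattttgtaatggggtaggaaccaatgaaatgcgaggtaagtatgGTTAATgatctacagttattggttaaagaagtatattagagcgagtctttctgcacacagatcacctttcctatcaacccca
Myh6: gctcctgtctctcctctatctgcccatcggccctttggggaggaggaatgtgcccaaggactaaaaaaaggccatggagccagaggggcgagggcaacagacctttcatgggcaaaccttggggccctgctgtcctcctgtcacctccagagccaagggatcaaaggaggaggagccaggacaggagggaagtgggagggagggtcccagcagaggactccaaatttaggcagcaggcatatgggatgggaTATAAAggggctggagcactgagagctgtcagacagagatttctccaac
Mybpc3: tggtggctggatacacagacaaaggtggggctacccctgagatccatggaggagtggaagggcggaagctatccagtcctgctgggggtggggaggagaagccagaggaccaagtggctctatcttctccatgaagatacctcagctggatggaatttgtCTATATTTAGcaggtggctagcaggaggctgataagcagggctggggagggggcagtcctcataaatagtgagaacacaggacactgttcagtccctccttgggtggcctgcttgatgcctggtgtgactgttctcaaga

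Such letters were counted on both strands in the 300-base windows of 27025 genes, of which 9290 were tested genes, and motifs were allowed to overlap each other. GTTAAT stood in 7.2% of all windows and in 4.56% of those of tested genes. It stood in 93 of 569 windows (16.3%) of genes at least 8-fold higher in liver and in 18 of 348 (5.17%) of genes at least 8-fold higher in heart. The HNF4 letters CAAAGTNCA stood in 1.41% of all windows, in 1.29% of those of tested genes, in 5.98% of the liver set and in 0.287% of the heart set (0.765% of the heart set of the 3 mice). The MEF2 site showed the other order, with 1.89% of all windows, 1.42% of those of tested genes, 1.41% of the liver set and 35 of 348 (10.1%) of the heart set (6.88% of the heart set of the 3 mice). The E-box CAGCTG stood in 16.1% of all windows, in 14.9% of those of tested genes, in 15.1% of the liver set and in 27.6% of the heart set (22.2% of the heart set of the 3 mice). TATAAA stood in 17.6% of the liver set and 17.2% of the heart set, against 14.2% of all windows and 7.65% of those of tested genes. In the sets of the 3 mice it stood in 17.4% (liver) and 13.4% (heart). The C/EBP letters TTGCNNAA stood in 16.7% of the liver set, 12.1% of the heart set, 8.51% of tested genes and 10.8% of all windows. For the GATA letters AGATAA these shares were 12.5, 14.7, 6.58 and 11.4%, and for the CArG box 1.76, 4.02, 1.39 and 1.57%. In the liver and heart sets of the 3 mice, the C/EBP letters stood in 17.4 and 9.94%. The GATA letters stood there in 12.7 and 12.6%, and the CArG box in 1.74 and 3.25%. These counts describe letters and were not tested.

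Differences are given as liver minus heart on the scale log2(CPM + 1), from limma with the mouse as a block and p-values adjusted over all tested genes. This scale understates the fold of low genes. In liver 1789 genes (15.0% of those tested) were higher, and in heart 1676 (14.0%), all by at least 2-fold. Of these, 750 (6.27%) were at least 8-fold higher in liver and 469 (3.92%) at least 8-fold higher in heart. The median of all tested genes was 0.00. In 1734 of the 11955 tested genes every liver library lay above every heart library, and in 1742 of 11955 the order was the reverse. Of these, 1515 and 1463 were called, so not every gene without overlap passed. Replicates spread more in liver, where the median SD of a gene over the 5 mice was 0.77 on the log2 scale against 0.37 in heart. Among the 3 mice these SDs were 0.67 and 0.34. With those 3 mice, 1541 genes (12.9%) were higher in liver and 2170 (18.2%) in heart, of which 759 and 696 by at least 8-fold, and the median of all tested genes was -0.27. Of the liver calls 1399 were shared (78.2% of the calls in 5 mice and 90.8% of those in 3), and of the heart calls 1425 (85 and 65.7%), with 0 in opposite directions. Scaling by TMM moved the median of all genes by -0.177, and leaving the 20 highest genes out of the scaling moved it by -0.123. The balance then turned toward heart, with 1626 genes higher in liver and 2166 in heart under TMM, 1683 and 1987 without the 20 highest genes, and 1758 and 1964 under median-ratio scaling.

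The most abundant marker of each organ was all but missing in the other. Alb, the main carrier protein of plasma, had 22846, 61213, 3818, 1815 and 7538 CPM in liver and 4.52, 3.42, 10.9, 3.25 and 5.47 CPM in heart. The organs did not overlap, and the difference was 10.60 ± 0.75 (SE, n = 5 mice; limma adjusted p = 1.24e-05). It was 11.99 in the 3 mice, whose libraries did not carry the large kidney and brain shares. Myh6, the fast motor of the adult mouse sarcomere, had 0.269, 0.349, 1.92, 4.36 and 0 CPM in liver and 32718, 24951, 34110, 42872 and 36959 CPM in heart. It was the most abundant gene of every heart library, and the difference was -14.10 ± 0.42 (limma adjusted p = 3.35e-07). Its gene lies beside Myh7, the slow cardiac myosin, within chr14:54941921-54994626 of GRCm38, a stretch of 52.7 kb in which both genes were higher in heart.

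**Figure D2:**
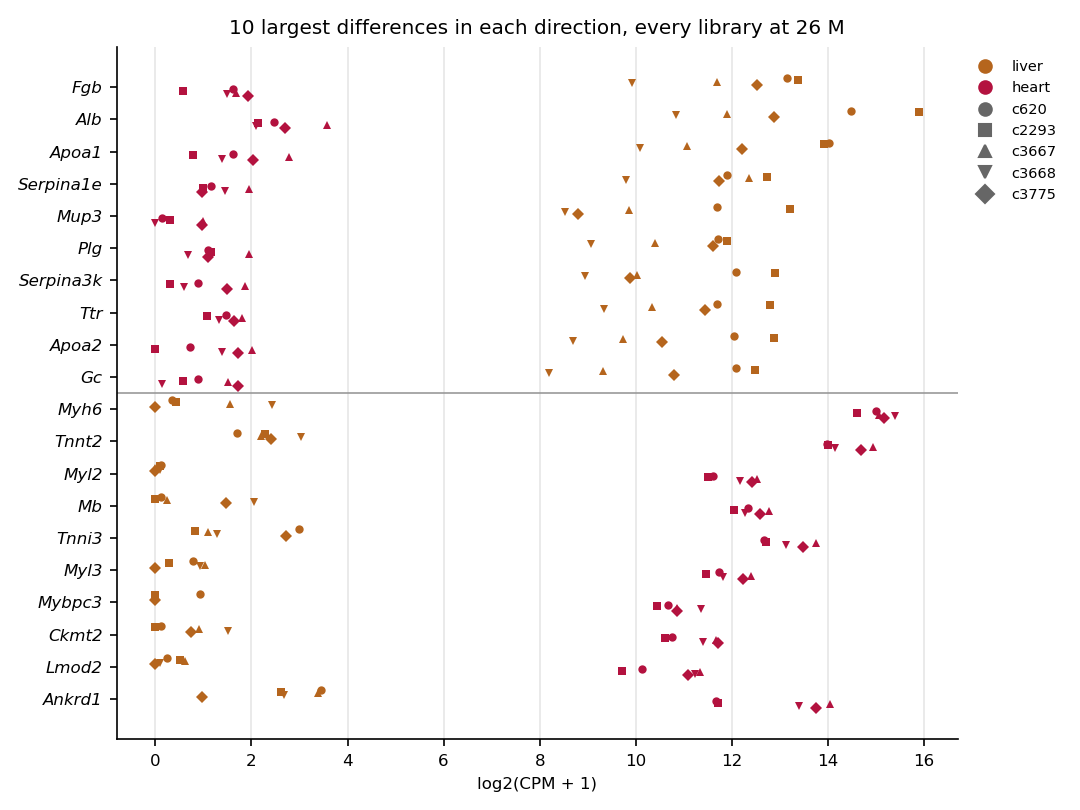
Level as log2(CPM + 1) in each liver and heart library (a point shape for each mouse) for the 10 genes with the largest difference in each direction. The points of the organs do not overlap for any of the 20 genes, and the heart values of the liver genes lie at 10.9 CPM or less.

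The 10 genes with the largest difference toward liver all code for secreted proteins of plasma or urine. Fgb had 9044, 10690, 3323, 965 and 5888 CPM in liver and 2.07, 0.489, 2.22, 1.83 and 2.78 CPM in heart (10.67 ± 0.58, limma adjusted p = 3.99e-06). It is the largest of these differences, and all 3 fibrinogen chains, which lie together within chr3:83007724-83049863 (42.1 kb), were higher in liver. Serpina1e, one of the alpha-1-antitrypsin protease inhibitors, had 3791, 6777, 5230, 886 and 3409 CPM in liver and at most 2.84 CPM in heart. Serpina1 genes are near-identical copies that can share reads, so the split among them is uncertain. The 10 genes furthest toward heart were mostly parts of the sarcomere. Tnnt2, the cardiac troponin T, had 2.24, 3.84, 3.58, 7.19 and 4.33 CPM in liver and 16158, 16493, 31251, 18038 and 26468 CPM in heart (-12.03 ± 0.38, limma adjusted p = 3.35e-07). Mb, the oxygen store myoglobin, had at most 3.14 CPM in liver and 4216 to 6984 CPM in heart (-11.63 ± 0.42, limma adjusted p = 5.73e-07). Ckmt2, the creatine kinase of mitochondria, had at most 1.84 CPM in liver and 1566 to 3343 CPM in heart.

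All 24 tested plasma carriers and apolipoproteins, proteins that the liver secretes, were higher in liver, with a median difference of 7.53, or 7.82 with the 2 genes at 0 in every heart library set to their lower bound, and 8.57 in the 3 mice. The list took 8.87, 14, 1.34, 0.679 and 2.63% of liver reads and at most 0.0956% of heart reads. Apoa1, the main protein of high-density lipoprotein, had 16588, 15421, 2133, 1085 and 4753 CPM in liver and 0.733 to 5.85 CPM in heart (10.54 ± 0.71, limma adjusted p = 1.04e-05). Its neighbours Apoc3, Apoa4 and Apoa5, within chr9:46228580-46271919 (43.3 kb), were higher in liver as well. Apoe was well expressed in both organs, with 10569, 18254, 1825, 1181 and 1313 CPM in liver and 311, 244, 877, 591 and 885 CPM in heart. Apoe is also made by macrophages and other cells, and its difference was 2.79 ± 0.89 (limma adjusted p = 0.0428). The call was lost without c620 (2.21), c2293 (1.93) or c3775 (3.34).

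Of 20 tested genes of coagulation and its inhibitors, 19 were higher in liver (median 7.07) and 0 in heart. Plg, the precursor of the clot-dissolving enzyme plasmin, had 3350, 3787, 1348, 533 and 3122 CPM in liver and 0.609 to 2.84 CPM in heart. Pros1, protein S, did not pass, with 262, 201, 151, 93.4 and 234 CPM in liver and 158, 200, 119, 118 and 150 CPM in heart. The organs overlapped for this cofactor, which endothelium also makes. All 10 tested major urinary proteins, pheromone carriers of male mice that share reads as close paralogs, were higher in liver (median 5.80, or 6.04 with Mup21 at its bound). Their level ranged widely among the mice, since the list took 0.557, 1.72, 0.197, 0.0775 and 0.0901% of liver reads. Mup20, known as darcin, had 1286, 1602, 491, 167 and 394 CPM in liver and at most 0.244 CPM in heart.

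Complement, the plasma cascade that tags microbes, was divided. Of 24 tested genes 12 were higher in liver and 2 in heart, with a median of 1.95. Mbl2, a mannose-binding lectin, had 1198, 1223, 413, 135 and 692 CPM in liver and at most 0.798 CPM in heart (8.48 ± 0.51, limma adjusted p = 6.41e-06). C3, the centre of the cascade, did not pass in 5 mice, with 164 to 3726 CPM in liver, lowest in c3667 and c3668, and 90.7 to 398 CPM in heart. It passed in the 3 mice, with a difference of 3.44 (limma adjusted p = 0.00276), and there 16 genes of the list were higher in liver and 2 in heart. C7, a part of the membrane attack complex, went the other way, with 11.9, 3.14, 22.1, 13.6 and 11.1 CPM in liver and 35.3, 25.7, 45.9, 77.9 and 48.4 CPM in heart (-1.93 ± 0.38, limma adjusted p = 0.0046). Cfd, the adipsin of fat cells, was the other gene higher in heart (-2.76 ± 0.53, limma adjusted p = 0.00397), with 0.0896 to 7.07 CPM in liver and 5.75 to 31.9 CPM in heart.

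Among genes of iron handling and the acute phase, 13 of 17 were higher in liver and 0 in heart (median 4.60). Serpina3k, a protease inhibitor of plasma, had 4330, 7656, 1046, 494 and 940 CPM in liver and at most 2.66 CPM in heart. Hp, haptoglobin, which binds free hemoglobin, had 9256, 1694, 258, 154 and 779 CPM in liver and 3.91 to 20.7 CPM in heart. Neither gene overlapped between the organs. Cp, the copper oxidase ceruloplasmin, had 6543, 1665, 436, 206 and 1630 CPM in liver and 132 to 233 CPM in heart, so liver of c3668 fell within the heart values. Its difference of 2.63 ± 0.72 (limma adjusted p = 0.0239) lost its call without c620 (1.96), c2293 (2.37) or c3775 (2.48).

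All 31 cytochrome P450 genes, oxidases of drugs, steroids and fatty acids, were higher in liver (median 5.98, or 6.08 with Cyp2d10 at its bound). Cyp2e1, which oxidises ethanol, had 1186, 3864, 728, 358 and 268 CPM in liver and 4.05 to 12.1 CPM in heart (6.58 ± 0.68, limma adjusted p = 1.09e-04). Cyp2j5, an epoxygenase that kidney expresses too, was highest in the libraries with kidney markers, with 952, 1316, 3110, 1800 and 1528 CPM in liver and 4.77 to 12.9 CPM in heart. Its difference was 7.37 in 5 mice and 7.00 in the 3 mice. Of the conjugation and glutathione transfer genes, 18 of 21 were higher in liver and 1, Nqo1, in heart (median 3.20). Nqo1, a quinone reductase, had 5.65, 3.49, 37.1, 18.4 and 4.73 CPM in liver and 83.5, 78.4, 46.3, 44.9 and 52.1 CPM in heart (-2.51 ± 0.59, limma adjusted p = 0.011).

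The full urea cycle runs in liver, and 6 of 7 tested genes of the cycle were higher there (median 6.71). Cps1, which fixes ammonia, had 781, 4057, 528, 211 and 1192 CPM in liver and 0.733 to 1.25 CPM in heart (8.68 ± 0.58, limma adjusted p = 9.75e-06). Arg1, which releases urea, had 457, 1272, 155, 64.9 and 426 CPM in liver and at most 0.733 CPM in heart. Slc25a13, the mitochondrial aspartate-glutamate carrier, did not pass, with 83.2 to 329 CPM in liver and 204 to 327 CPM in heart. Amino acid breakdown followed, with 22 of 23 genes higher in liver (median 6.53, or 6.64 with Agxt at its bound) and Sdsl not passing. Mat1a, the S-adenosylmethionine synthase of hepatocytes, had 1477, 1976, 229, 173 and 945 CPM in liver and 0 to 2.57 CPM in heart. Tat, the tyrosine aminotransferase induced by glucocorticoids, had 326, 1914, 297, 88.9 and 2154 CPM in liver and at most 1.15 CPM in heart.

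Of the bile acid genes 17 of 18 were higher in liver (median 5.26). Abcb11, the bile salt export pump, had 1010, 884, 477, 175 and 2474 CPM in liver and 0.71 to 2.22 CPM in heart (8.40 ± 0.52, limma adjusted p = 7.00e-06). Abcb4, the phospholipid flippase of bile, was the member that did not pass, with 53.1 to 357 CPM in liver and 50.3 to 87.1 CPM in heart, and it passed in the 3 mice (2.08, limma adjusted p = 0.0086). Gluconeogenesis and glycogen genes were higher in liver in 9 of 13 and in heart in 1 (median 4.29). Pck1, which commits carbon to glucose, had 1162, 1002, 690, 353 and 2621 CPM in liver and 2.69 to 6.39 CPM in heart. Ppp1r3c, a glycogen-targeting subunit of protein phosphatase 1, was the 1 higher in heart, with 84.9, 370, 196, 128 and 272 CPM in liver and 673, 963, 433, 337 and 483 CPM in heart (-1.54 ± 0.41, limma adjusted p = 0.0208). All 17 genes of cholesterol and lipoprotein metabolism were higher in liver (median 3.48), and 15 in the 3 mice. Apob, the structural protein of very low-density lipoprotein, had 1006, 3098, 219, 123 and 395 CPM in liver and at most 0.975 CPM in heart. Hmgcs1, an early step of sterol synthesis, was present in both organs, at 1622 to 3897 CPM in liver and 86.2 to 195 CPM in heart (4.09 ± 0.44, limma adjusted p = 1.42e-04).

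**Figure D3:**
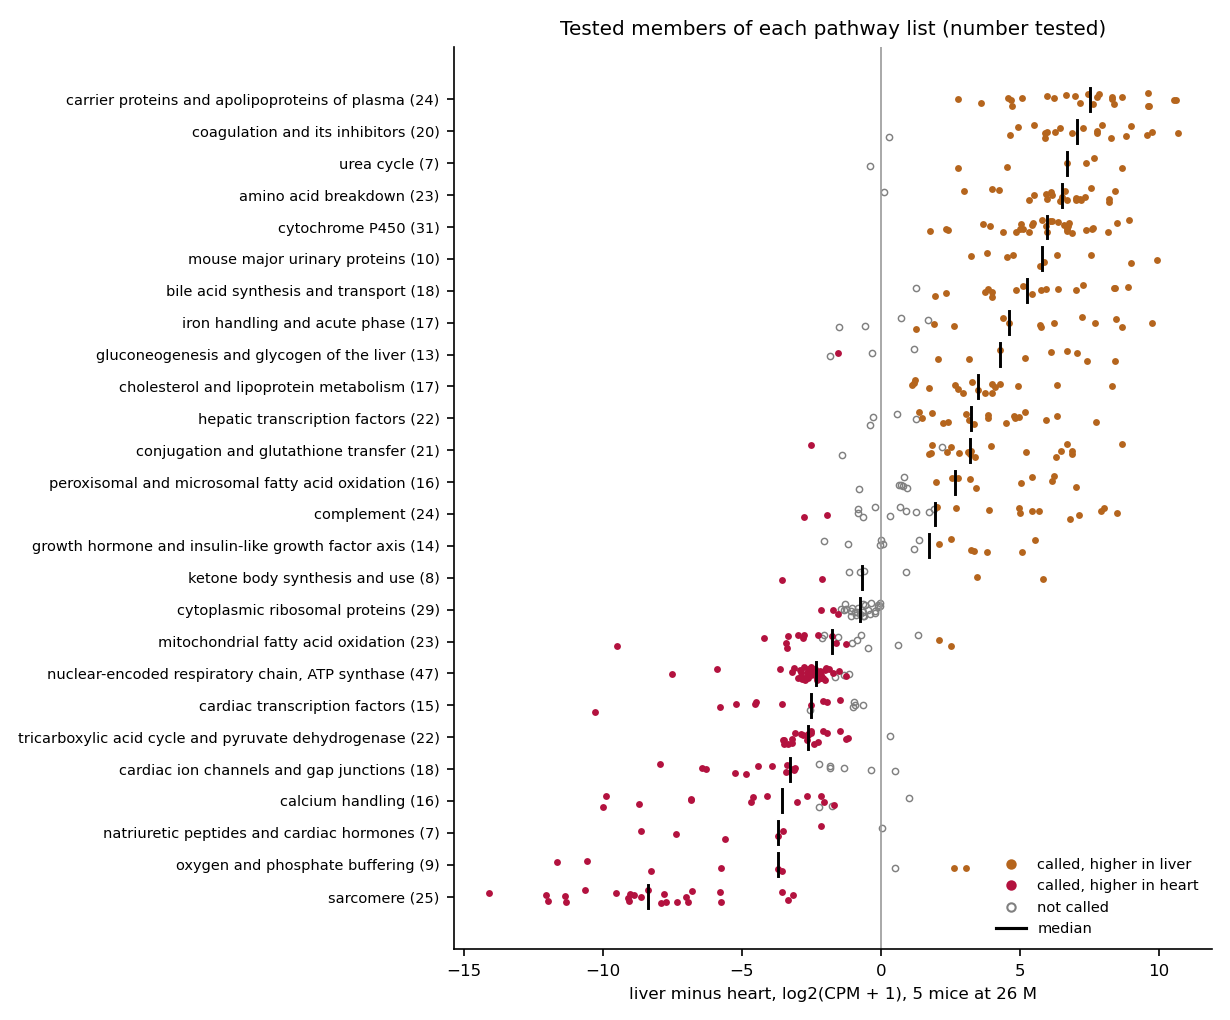
Liver minus heart on the log2(CPM + 1) scale for each tested gene of 26 pathway lists, with the number tested in brackets and the median as a bar. Plasma carriers (median 7.53) lie at the liver end and the sarcomere (median -8.38) at the heart end, while ribosomal protein genes lie near 0 (median -0.76).

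The sarcomere was the counterpart in heart. All 25 tested genes were higher there, with a median of -8.38, or -8.61 with Myl7 at its bound, and the list took 9.31, 8.36, 13.7, 11.8 and 12.8% of heart reads against at most 0.0631% of liver reads. The list has 30 genes, of which 4 were at 0 in all 10 libraries. Tnni3, the cardiac troponin I, had 6.9, 0.768, 1.13, 1.45 and 5.55 CPM in liver and 6480, 6688, 13848, 8963 and 11456 CPM in heart. Mybpc3 had 1385 to 2618 CPM in heart and reads in 1 liver library alone, of c620, at 0.896 CPM (-10.65 ± 0.36, limma adjusted p = 4.79e-07). Tpm1, a tropomyosin that many cells express, was present in liver at 56.7 to 238 CPM and in heart at 13044 to 28748 CPM (-7.33 ± 0.49, limma adjusted p = 1.02e-05). Myl7, the atrial regulatory light chain, was at 0 in every liver library and at least 1090-fold higher in heart, where the bound rests on 3 reads over the 5 liver libraries.

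Of 16 calcium handling genes 13 were higher in heart and 0 in liver (median -3.55), and 15 were higher in heart in the 3 mice. Atp2a2, the calcium pump SERCA2, had 106, 219, 618, 802 and 335 CPM in liver and 5541, 4675, 4234, 8073 and 6129 CPM in heart (-4.08 ± 0.52, limma adjusted p = 3.94e-04). Casq2, the calcium store protein calsequestrin of heart, had 0.179 to 3.9 CPM in liver and 1463 to 2647 CPM in heart (-9.90 ± 0.44, limma adjusted p = 1.65e-06). Of the ion channel and gap junction genes 12 of 18 were higher in heart in 5 mice (median -3.27) and 17 in the 3 mice. Gja1, connexin 43, which couples cardiomyocytes and astrocytes, had 17.7, 8.3, 62.8, 147 and 15.7 CPM in liver and 980, 1075, 648, 911 and 884 CPM in heart. Its highest liver values were in c3667 and c3668, and its difference was -4.85 in 5 mice and -6.10 in the 3 mice.

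The hormones of the heart were at or near 0 in liver. Nppa, the atrial natriuretic peptide, had reads in 1 liver library (c3668, 0.382 CPM) and 241, 213, 1049, 460 and 496 CPM in heart. Nppb, the B-type peptide, was at 0 in every liver library and had 151, 118, 235, 177 and 159 CPM in heart, at least 3218-fold higher by the bound of 3 reads over the group. Both lie within chr4:147985788-148002079 (16.3 kb). Of the list of 7 natriuretic and hormone genes 6 were higher in heart and the receptor Npr2 did not pass (0.03 ± 0.39, limma adjusted p = 0.967). Among the oxygen and phosphate buffering genes 6 of 9 were higher in heart and 2 in liver. Those 2 were Gatm and Gamt, the enzymes that make creatine, at 3.08 ± 0.72 (limma adjusted p = 0.0108) and 2.64 ± 0.64 (limma adjusted p = 0.0127). Gatm is also strong in kidney, and its liver values of 22.9, 13.3, 375, 264 and 68.6 CPM were highest in the libraries with kidney markers. Its difference was 1.71 in the 3 mice. Ckm, the muscle creatine kinase that uses creatine, had 196 to 429 CPM in heart and reads in 1 liver library.

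Of 47 nuclear-encoded subunits of the respiratory chain and ATP synthase 44 were higher in heart and 0 in liver (median -2.33), with 41 and 0 in the 3 mice, and the list took 2.78 to 3.55% of heart reads and 0.33 to 0.831% of liver reads. Atp5b, the catalytic beta subunit, had 184, 757, 907, 753 and 118 CPM in liver and 3515, 3112, 3475, 3912 and 3845 CPM in heart (-3.12 ± 0.58, limma adjusted p = 0.00319). The liver values of this gene spread widely between mice while the heart values lay close together. Of 22 genes of the tricarboxylic acid cycle and pyruvate dehydrogenase 21 were higher in heart (median -2.62), or 18 in the 3 mice, and Suclg2, the GTP-forming subunit of succinyl-CoA ligase, did not pass (0.34 ± 0.37, limma adjusted p = 0.536). Idh2 had 121, 178, 553, 294 and 229 CPM in liver and 4715, 4335, 1938, 1920 and 1911 CPM in heart, with the higher hearts those of c620 and c2293. Genes encoded by mitochondrial DNA were listed at 0 in all 10 libraries and gave no value.

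Fatty acid oxidation went both ways. In mitochondria 12 of 23 genes were higher in heart and 2 in liver (median -1.74). In the 3 mice these were 10 and 3, and 10 did not pass (median -1.44). Acadm, the medium-chain dehydrogenase, had 195, 573, 674, 338 and 184 CPM in liver and 1889, 1781, 3289, 3759 and 3436 CPM in heart (-2.97 ± 0.49, limma adjusted p = 0.00159). In peroxisomes and microsomes 10 of 16 genes were higher in liver and 0 in heart (median 2.67). Cat, the peroxisomal catalase, had 2184, 4789, 5739, 2647 and 14675 CPM in liver and 807, 876, 267, 277 and 317 CPM in heart (3.42 ± 0.63, limma adjusted p = 0.0031).

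Ketone bodies are made by the liver and burnt by the heart, and of 8 genes 2 were higher in each organ. Oxct1, which starts their use, had 87.9, 14, 783, 500 and 100 CPM in liver and 1689, 1673, 1601, 1549 and 1596 CPM in heart (-3.54 ± 0.77, limma adjusted p = 0.00759). The 2 highest liver values of Oxct1 were those of c3667 and c3668, and the difference was -5.01 in the 3 mice. Bdh2, a hydroxybutyrate dehydrogenase, was higher in liver (3.47 ± 0.39, limma adjusted p = 1.87e-04) and Slc16a1, a carrier of ketone bodies and lactate, the other higher in heart (-2.11 ± 0.47, limma adjusted p = 0.00864).

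Many enzymes exist as a liver form and a heart or muscle form. In each of 25 pairs of genes, a gene assigned to liver was set against a gene assigned to heart or muscle. Not every pair consists of forms of the same enzyme, and Ldha, assigned to liver here, is also the form of anaerobic muscle. In 10 pairs each form was higher in the organ it was assigned to, and in 6 the heart form alone passed. In 4 pairs both forms were higher in heart, and in 2 the liver form alone passed, while in the remaining 3 a form was not tested. Among those 3, the heart forms Cpt1b and Cox6a2 were at 0 in both organs. Shares within a pair are per kilobase of exon, where the length joins all annotated exons of a gene. This length can exceed that of the RNA present, and the shares depend on it. Fabp1, the liver fatty acid-binding protein, made up 96.4 to 100% of the pair with Fabp3 in liver and 0.0236 to 0.0841% in heart. Gjb1, connexin 32, made up 67.5 to 99.8% of the pair with Gja1 in liver and at most 0.246% in heart. The pair Fabp1 and Fabp3 exchanged almost fully between the organs. Other pairs that passed in both directions exchanged less fully. In liver Acaca made up 42.1 to 78.3% of its pair with Acacb, and Idh1 48.7 to 82.1% of its pair with Idh2. The pair Cox4i1 and Cox4i2 did not exchange. Cox4i1, the general form of cytochrome c oxidase subunit 4, made up 98.2 to 100% in liver and 96.9 to 97.9% in heart, and both were higher in heart.

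**Figure D4:**
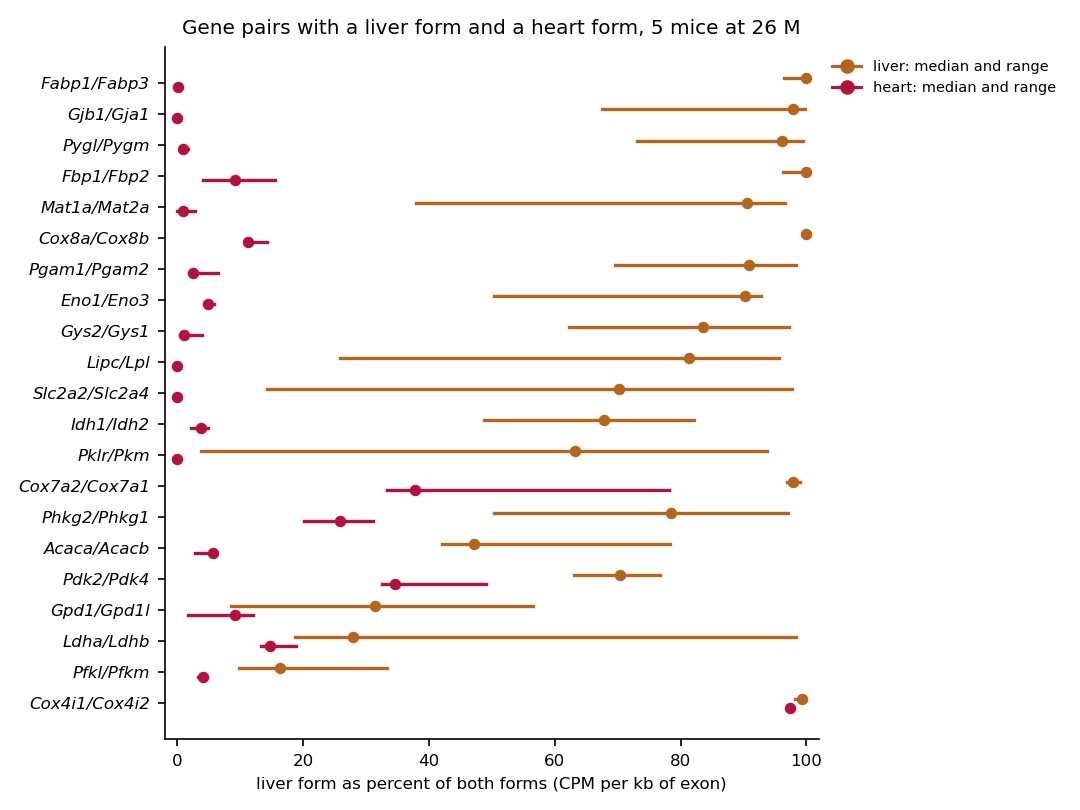
Liver form as a percent of both forms (CPM per kilobase of exon) in 21 pairs, with points for the median and lines for the range of the 5 libraries of each organ. Fabp1 is at 96.4 to 100% in liver and below 0.1% in heart, whereas Pklr spans 3.76 to 93.7% in liver.

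Glycolytic forms varied widely among the libraries labelled liver. Pklr, the liver pyruvate kinase, had 90.7, 141, 16.6, 9.03 and 41.8 CPM in liver and at most 0.443 CPM in heart. Its share of the pair with Pkm was 3.76 to 93.7% in liver, and 63.3 to 93.7% in the 3 mice. Pkm, the form of muscle and brain, had its highest liver values, 223 and 357 CPM, in c3667 and c3668. Pfkl, named the liver phosphofructokinase, was higher in heart (-2.14 ± 0.51, limma adjusted p = 0.0122), at 59.9 to 103 CPM against 5.28 to 40.1 CPM in liver. Pfkm, the muscle form, was higher in heart as well (-4.59 ± 0.58, limma adjusted p = 3.75e-04) and exceeded Pfkl per kilobase in every liver library, where Pfkl made up 9.9 to 33.3%. The exon lengths used were 6.67 kb for Pfkl and 3.34 kb for Pfkm, and these shares depend on them. Lactate dehydrogenase differed through Ldhb alone, with 6.9, 4.4, 456, 319 and 59.9 CPM in liver and 774 to 1571 CPM in heart (-4.52 ± 0.83, limma adjusted p = 0.00304). Ldha, the form of anaerobic muscle, overlapped between organs (-1.24 ± 0.54, limma adjusted p = 0.124).

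The median differences of the transcription factor lists were smaller than those of plasma carriers and the sarcomere. Of 22 hepatic factors 18 were higher in liver and 0 in heart (median 3.26). Hnf4a, a nuclear receptor of hepatocyte genes, had 538, 958, 859, 519 and 659 CPM in liver and 2.83, 1.34, 3.9, 0.812 and 3.17 CPM in heart (7.75 ± 0.36, limma adjusted p = 2.12e-06). Kidney also expresses this gene. The libraries with kidney markers had 859 CPM (c3667) and 519 CPM (c3668), and the part of kidney RNA in these values was not tested. Nr1h4, the bile acid receptor FXR, had 205, 245, 173, 85.6 and 292 CPM in liver and 1.1 to 2.74 CPM in heart. Ppara, the receptor of fatty acids, was present in heart at 67.1 to 75.9 CPM and in liver at 112 to 1093 CPM (2.42 ± 0.51, limma adjusted p = 0.00658). Rxra, the partner of these receptors, passed in 5 mice (1.37, limma adjusted p = 0.0192) and not in the 3 (1.14, limma adjusted p = 0.132). Prox1, known in liver, lymphatic endothelium and heart, overlapped between organs, with 74.4 to 260 CPM in liver and 87.1 to 303 CPM in heart.

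Of 15 cardiac factors 10 were higher in heart and 0 in liver (median -2.52), and 13 in the 3 mice. Nkx2-5, the homeobox factor of the heart, was at 0 in every liver library and at 34.2, 26.4, 17.6, 15.1 and 20.1 CPM in heart, at least 434-fold higher by the same bound. Tbx5, a T-box factor, had at most 0.918 CPM in liver and 54.9 to 122 CPM in heart (-5.80 ± 0.40, limma adjusted p = 1.09e-05). Ankrd1, a stretch-responsive cofactor, had 3276, 3342, 16847, 10803 and 13680 CPM in heart and 0.947 to 9.95 CPM in liver. It separated the sets of hearts, with c620 and c2293 lowest. Gata4, a factor of both organs in development, had 75.5, 25.5, 6.2, 6.88 and 69.7 CPM in liver and 106, 142, 87.4, 103 and 79.9 CPM in heart (-2.09 ± 0.59, limma adjusted p = 0.0257). In the 3 mice it did not pass (-1.04, limma adjusted p = 0.204), nor without c2293, c3667 (-1.71) or c3668 (-1.68) alone. Mef2c, which brain expresses too, had 110, 17.4, 344, 714 and 133 CPM in liver and 178 to 294 CPM in heart, and it did not pass in 5 mice but did in the 3 (-1.93, limma adjusted p = 0.0329).

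The growth hormone and IGF axis starts from the liver, which is the main source of circulating IGF1. Of 14 genes 7 were higher in liver and 0 in heart (median 1.72), and in the 3 mice 8 and 1. Igf1 had 1076, 895, 349, 178 and 1122 CPM in liver and 58, 65.8, 49, 72.1 and 56.7 CPM in heart (3.26 ± 0.49, limma adjusted p = 9.45e-04). Ghr, the growth hormone receptor, had 730 to 3214 CPM in liver and 172 to 409 CPM in heart (2.51 ± 0.47, limma adjusted p = 0.00329). The receptors of insulin and IGF1 overlapped between organs. The 1 gene higher in heart in the 3 mice was Igfbp5, an IGF-binding protein, at -3.35 (limma adjusted p = 4.34e-04), against -2.06 (limma adjusted p = 0.0506) in 5 mice.

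Markers of some cells other than hepatocytes and cardiomyocytes also differed between the organs. Of 7 Kupffer cell genes 4 were higher in liver and 0 in heart (6 and 0 in the 3 mice), and Clec4f, a lectin of these resident macrophages, had 259, 79, 5.5, 0.918 and 51.1 CPM in liver and at most 0.244 CPM in heart (4.60 ± 0.92, limma adjusted p = 0.00501). The general macrophage list did not follow, with 1 of 10 genes, Lyz2, higher in heart (-2.60 ± 0.76, limma adjusted p = 0.0299) and not passing in the 3 mice (limma adjusted p = 0.0903). The list of liver sinusoidal endothelium was divided, as 4 of 10 genes were higher in liver and 2 in heart (median 0.11). It took on average 0.0258% of liver reads and 0.0243% of heart reads. Mrc1, its member with the highest mean in liver, did not pass (-0.93). Stab2, a scavenger receptor of liver sinusoidal endothelium, was among the 4 higher in liver. It had 108, 32.2, 13.8, 11.9 and 78.6 CPM in liver and at most 1.01 CPM in heart. Of 13 genes of heart capillary endothelium 11 were higher in heart (median -3.22), and 13 in the 3 mice, and Fabp4 had 44.4 to 186 CPM in liver and 2456 to 4054 CPM in heart (-5.22 ± 0.40, limma adjusted p = 1.87e-05). Fibroblast genes were higher in heart in 10 of 11 and smooth muscle and pericyte genes in 8 of 8. Col3a1, a collagen of the matrix, had 26 to 85.1 CPM in liver and 243 to 370 CPM in heart (-2.85 ± 0.38, limma adjusted p = 5.41e-04). Dcn, the proteoglycan decorin, did not pass (-2.74 ± 0.95, limma adjusted p = 0.0592), with 338, 148, 25.2, 16.9 and 44.9 CPM in liver and 162, 151, 956, 706 and 868 CPM in heart. Atrial genes were higher in heart in 9 of 10.

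Markers of blood and of other tissues differed between libraries of 1 organ. Erythroid genes held 0.0633, 0.065, 0.709, 0.0288 and 0.631% of heart reads and at most 0.0109% of liver reads, and 4 of 5 were higher in heart. Hbb-bs, the adult beta globin, had 2688 and 2388 CPM in the hearts of c3667 and c3775 and 118 to 161 CPM in the other 3. The globin genes share reads as near copies. Of the skeletal muscle list 4 of 5 genes were higher in heart, and Myh4, the myosin of fast fibres, had 165, 9.41, 29.6, 0.304 and 32.6 CPM there. All 4 tested kidney tubule genes were higher in the libraries labelled liver, and 3 in the 3 mice. Kap, an androgen-regulated kidney protein, had 85.9, 14.3, 5581, 2662 and 588 CPM in liver and 4.52 to 23.7 CPM in heart (4.99 ± 1.04, limma adjusted p = 0.00618). Its difference was 2.77 in the 3 mice (limma adjusted p = 0.00333). Of 10 brain genes 3 were higher in liver and 0 in heart in 5 mice, and 2 and 4 in the 3 mice.

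Ribosomal protein genes, which every cell needs, lay nearer to the median of all genes. Of 29 cytoplasmic ribosomal protein genes 3 were higher in heart and 0 in liver (median -0.76), and 0 passed in the 3 mice. Rps24 was the highest of the list in heart, with 180 to 274 CPM in liver and at least 428 CPM in every heart (-2.15 ± 0.49, limma adjusted p = 0.0101), but it did not pass in the 3 mice (limma adjusted p = 0.072). Malat1, a nuclear long non-coding RNA and the highest gene of 3 liver libraries, had 20012, 5384, 9862, 6556 and 15861 CPM in liver and 7545, 6548, 17620, 10816 and 12807 CPM in heart. The organs overlapped for Malat1, and the difference was -0.03 ± 0.66 (limma adjusted p = 0.982).

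The organ differences at 26 M were set beside those of the 7 mice of 20 M, which share no library with them. At 20 M 2537 genes (21.2%) were higher in liver and 3511 (29.4%) in heart, from a larger number of mice. Of the liver calls at 26 M 1702 were also called at 20 M (95.1% of the 26 M calls and 67.1% of the 20 M calls), and of the heart calls 1642 (98 and 46.8%), with 0 in the opposite direction. Alb differed by 11.15 at 20 M and 10.60 at 26 M, and Myh6 by -12.95 and -14.10. The liver library of c3054 at 20 M also held kidney markers, with 0.822% of reads on the hepatocyte list and 1.2% on the kidney list. That of c3580 held 0.081% on the cardiomyocyte list, against 0.00266 to 0.00817% in the other livers of 20 M. How far this lowered the Myh6 difference at 20 M was not tested. The change of the organ difference with age was tested in 1 model of both ages, and 0 genes (0% of those tested) passed. At an unadjusted p of 0.05 or less there were 125 of 11955 genes in limma. In edgeR, fitted without c3580, there were 87, and 0 passed the adjusted threshold. Both counts lie below the share of 0.05 of the tested genes that chance alone would give. The 0 calls therefore do not show that the organ differences were equal at both ages. Myh4 lay furthest from equality among the genes in the plot of both ages, at -4.03 for 26 M and -0.64 for 20 M, and was chosen after its values were seen.

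**Figure D5:**
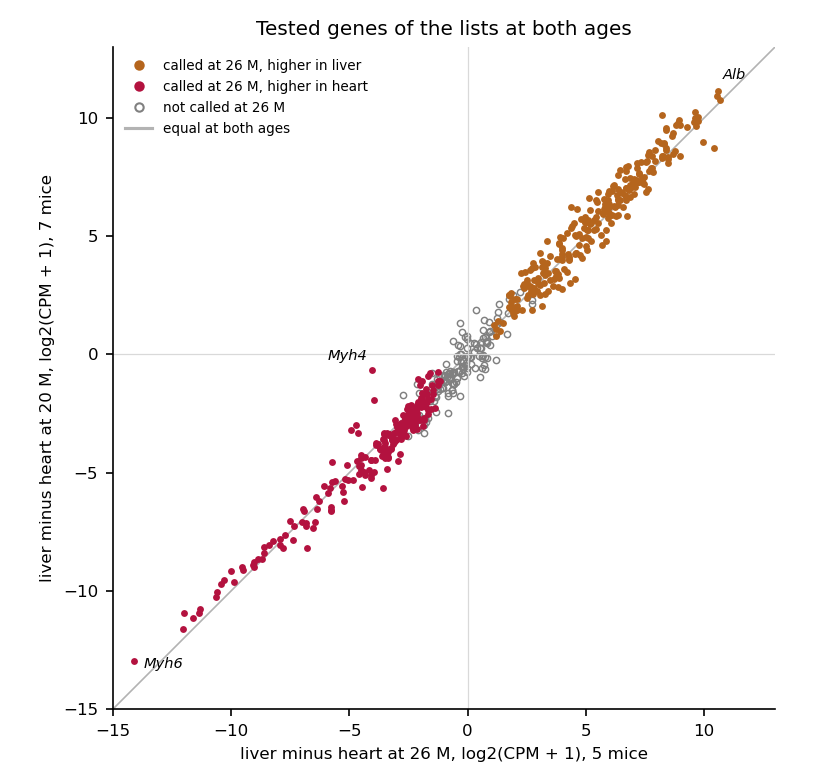
Liver minus heart on the log2(CPM + 1) scale at 26 M (5 mice, x axis) and at 20 M (7 mice, y axis) for the tested genes of the lists, with the line of equality. Alb (10.60 and 11.15) and Myh6 (-14.10 and -12.95) lie at the ends, and Myh4 (-4.03 and -0.64) lies off the line.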

How the data were processed

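The authors trimmed single reads (CutAdapt in their methods, Trim Galore in the processing notes), aligned them with HISAT2 2.1.0 to GRCm38, counted them on Ensembl genes and, organ by organ, scaled these counts with size factors from DESeq2. The deposited values are therefore a signal, normalized counts within an organ. No molecular identifiers are described, so PCR copies count as reads, and bounds from 0 reads cover counting error only. In each library all values were whole multiples of 1 step (tolerance 0.01), which gave back the reads.

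Columns were scaled to CPM, which removes the size factors, and 1 was added before log2. limma 3.58.1 (R 4.3.3) with a trended prior and the mouse as a block gave two-sided p-values, adjusted by Benjamini-Hochberg at 0.05 over all tested genes. The block follows the labels, since same-numbered libraries came from the same animal. The correlations of their deviations were -0.258, -0.253, -0.17, -0.0837 and -0.165. With 5 pairs, an exact sign-flip test cannot go below 0.0625. The 2 closest libraries differed in 94.7% of genes, so each was counted.

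Genes named are Alb and Myh6, the 10 highest of each organ, the 10 largest differences in each direction, the 3 highest of each list, form pairs, organ transcription factors, list members going against their list, and genes behind small counts, some chosen after their values were seen. A few genes that this rule names are not reported here. Members and lists were chosen with earlier results of these data known. Of 749 listed genes 591 were tested and 48 were listed at 0 in all 10 libraries, 13 of them genes of mitochondrial DNA and 35 others. The reason for these zeros is not given in the sources used here, so they need not mean that the RNA was absent. Shares and counts of lists lack these genes. Gene positions came from GENCODE on GRCm38. Alternatives were edgeR 4.0.16 and DESeq2 1.42.0 on recovered reads, TMM, median-ratio or top-gene scaling, a pseudocount of 0.1, no filter, no block and left-out mice. On simulated data with 5 pairs, 86 of 97 genes changed by 2-fold and 103 of 103 changed by 8-fold were recovered, with 5 false calls. With 3 pairs these were 49 of 109 and 91 of 91, with 4 false calls. The simulated spread was not taken from these libraries, where the SD of liver minus heart had a median of 0.97 on the log2 scale. Simulated mouse effects were shared by both organs, whereas the same-mouse correlations here were negative. The rates may thus be too high for these data. Kidney, lung, skeletal muscle and testis of 26 M served for checks of the libraries alone, and the other 226 columns of the tables were not used here.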

Additional observations from a re-analysis of the deposited data

Results flagged for a closer look

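In groups of 5 libraries, 508 values or shares were checked for a library that stood apart. Its gap to its nearest neighbour had to exceed 0.71 of the group's range. Chance gives such a gap in about 1 of 20 groups, which would be more than the 10 that stood apart. Among genes, these were Myl4, an atrial light chain, in the heart of c3667 (565 CPM, the others at most 247), Ctss, a lysosomal protease, in the liver of c620 (298 CPM), Cpt1a, the gate of mitochondrial fatty acid oxidation, in the liver of c3667 (180 CPM), Acaca, an acetyl-CoA carboxylase, in the heart of c3668 (21.3 CPM) and the repressor Bcl6 in the liver of c3775 (317 CPM). Among lists, they were the urea cycle in the liver of c2293 (0.905% of reads), the natriuretic peptides in the heart of c3667 (0.163%), the macrophage list in the liver of c620 (0.154%), the fibroblast list in the liver of c620 (0.0606%) and the lymphocyte list in the heart of c3667 (0.00901%).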

How the results depend on the processing

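Of 206 named genes 160 kept their call and direction under every alternative run on them (all but edgeR in the 3 mice and the splits by suffix and by c620 and c2293), and 0 called genes changed direction, but 19 called genes lost their call without some 1 mouse: Apoe, Calr, Ppargc1a, Scp2, Gstm1, Cp, Igfbp4, Rps24, Lyz2, Myh4, Lrp2, Snap25, Cox7a2, Acacb, Gata4, Mef2a, Rxra, Nr1h3 and Srebf1. Among the libraries whose removal did this, c620 and c2293 took 11 and 8 calls, c3775 14, c3667 6 and c3668 5. Leaving out 1 mouse gave 2377 (without c3775) to 3484 called genes, against 3465. Without the replicate block 4336 genes were called, with no pairing of the organs, and 7 named genes gained a call. DESeq2 called 4582, edgeR 3269, TMM scaling 3792. With the hearts without the suffix b alone (2 mice, c2293 and c3668), 530 genes were called, 337 higher in liver and 193 in heart. With the hearts that carry it alone (3 mice), 2861 were called, 1618 higher in liver and 1243 in heart. These sets differ in number of mice as well as in the suffix, and each holds a liver with kidney and brain markers (c3668 and c3667). The meaning of the suffix is not given in the sources used here. With c620 and c2293 alone 1791 genes were higher in liver and 3124 in heart, and without them 2929 and 1879. At 20 M edgeR without c3580 gave 2197 genes higher in heart. The alternatives on left-out sets of mice and on the suffix were chosen after seeing the data, and the cause of these changes was not tested. Without c3667 and c3668 the uncalled values changed sign for Malat1 (0.48), Mrc1 (0.17), Gpm6a (-0.54) and Pgam1 (-0.26). 8 named genes lost their call without these 2 mice, and 5 gained one. No library lacked the markers of its label, so that alternative was not run. Leaving out 1 mouse, uncalled values changed sign for Malat1 (-0.38 to 0.18), Cox8a (-0.10 to 0.64), Mat2a (-0.55 to 0.47), Gpd1l (-0.59 to 0.26), Mef2c (-1.21 to 0.21) and Cux2 (-0.81 to 0.46).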

Other observations

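Saa1, a serum amyloid A chosen after its values were seen, had 1839 CPM in the liver of c620 and at most 72.5 CPM in the other 4. The macrophage list was highest in this library too.

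Of 376 long non-coding genes tested 82 were higher in liver (21.8%) and 74 in heart (19.7%), against 14.8 and 13.6% of 11393 protein-coding genes. Of 149 pseudogenes 18 were higher in liver and 40 in heart. These shares were not tested.

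The kidney tubule list, also low in heart, was higher in the hearts whose column names end in b (c620, c3667 and c3775, 0.00513, 0.0056 and 0.0043% of reads) than in those of c2293 and c3668 (0.00178 and 0.00198%), as seen after the values.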
